A study of Mus musculus with 6 samples.

Results

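The mitochondrial ribosome was examined through the genes that encode its proteins, taken as every protein-coding gene of the GENCODE M21 annotation whose symbol starts with Mrpl or Mrps followed by a digit. That rule found 78 genes among the 55177 annotated genes with a transcript in the deposited tables, and they lay on 17 chromosomes. By symbol, 49 belonged to the large subunit (Mrpl) and 29 to the small subunit (Mrps). All 78 passed the filter on low counts and were tested. The rule used no measured value.

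Libraries came from CD4+ T cells of strain C57BL/6J, 3 from the genotype labelled Wtap KO and 3 from the genotype labelled Wildtype (WT). Wtap encodes a subunit of the complex that writes N6-methyladenosine (m6A) into messenger RNA. One protocol text covers both groups. It gives 4-hydroxytamoxifen at 1 µM for 24 h, named as the step that depletes Wtap, then anti-CD3 at 1 µg/mL with anti-CD28 at 2.5 µg/mL under Th1 conditions (IL-12 at 10 ng/mL, anti-IL-4 at 10 µg/mL) for 40 to 48 h, expansion in IL-2 at 200 IU/mL and harvest on day 4. The labels do not give the Cre line, the age of the mice, whether WT cells carried Cre, or whether the libraries are from separate animals. The p-values therefore reflect the spread among these libraries. That spread may be technical, apart from the sex-linked difference of Wtap KO 3 given below.

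Mitochondria keep a small genome whose messenger RNAs are translated inside the organelle by a ribosome of their own. Its ribosomal RNAs come from the mitochondrial genome, while all of its proteins are encoded in the nucleus, made in the cytosol and imported. The small subunit reads the messenger RNA, and the large subunit joins amino acids into proteins that become core subunits of the respiratory chain and ATP synthase. Some of the ribosome's proteins descend from bacterial ribosomal proteins and others were gained in mitochondria. Activated T cells enlarge their mitochondria as they start to divide.

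Total Wtap RNA was not detectably lower in the libraries labelled Wtap KO. Wtap had 58.8, 58.1 and 61.5 TPM in Wtap KO libraries and 51.2, 48.7 and 42.0 TPM in WT libraries, where TPM is a length-corrected share of all transcripts (log2 fold change 0.16 ± 0.10, adjusted p = 0.371). Of the Wtap counts, transcript Wtap-205 held 10.3%, 11.0% and 8.83% in Wtap KO and 55.8%, 50.7% and 47.4% in WT, without overlap. Depth was 32363139 to 44039467 estimated counts per library. Wtap KO 3 stood apart in sex-linked genes, with 14.04 TPM of the Y-linked Kdm5d where the other 5 libraries had at most 0.625 TPM, and 0.297 TPM of Xist where the others had at least 172.1 TPM. Wtap KO 3 thus cannot come from the same animal as Wtap KO 1 or Wtap KO 2. The sex pattern was mixed within Wtap KO and uniform within WT. T cell markers summed to 2296 to 2644 TPM in Wtap KO and 2701 to 3041 TPM in WT, and 0 of 6 passed the test with edgeR, DESeq2 or limma, while 2 were lower at an unadjusted p under 0.05 and 1 was called lower with the offset for GC content described below. Cd4, which is not in that list, was called lower, with 139.8, 130.2 and 130.6 TPM in Wtap KO libraries and 162.9, 191.7 and 195.1 TPM in WT libraries and no overlap (-0.52 ± 0.11, adjusted p = 0.0244).

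In Wtap KO cells, 11 of the 78 mitoribosomal genes were higher and 2 were lower than in WT cells, and 65 did not pass the test (edgeR's quasi-likelihood test, Benjamini-Hochberg adjustment over 17610 genes, threshold 0.05). The higher genes were Mrpl43, Mrps34, Mrps6, Mrpl46, Mrpl16, Mrps2, Mrpl12, Mrps23, Mrpl19, Mrpl14 and Mrps7. The lower genes were Mrps14 and Mrpl39. Higher members made up 14.1% of the set, beside 5.75% of all genes tested, and lower members made up 2.56%, beside 3.49% of all genes, with 9.23% of all genes called in either direction. Among protein-coding genes with a mean of at least 5 TPM, 5.98% were higher and 4.9% lower, or 10.9% in all. The median log2 fold change of the 78 genes was 0.01, and that of all genes tested was -0.00. Of the 78 fitted fold changes, 40 were above 0 and 38 below.

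The split of the calls depended on the method. With an offset for GC content 9 members were higher and 10 lower, beside 5.49% and 7.65% of all genes (13.1% in all). With an offset for transcript length 9 were higher and 2 lower, beside 4.55% and 5.36% of all genes (9.91% in all). The offsets each set the median of all genes tested to -0.07. DESeq2 called 12 higher and 7 lower, beside 7.75% and 6.88% of all genes (14.6% in all). The limma fit to log2(TPM + 1) called 9 higher and 0 lower, beside 5.31% and 1.89% of all genes (7.19% in all), and 8 lower at an unadjusted p under 0.05. The share of all genes at that unadjusted threshold is not given for limma.

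**Figure D1:**
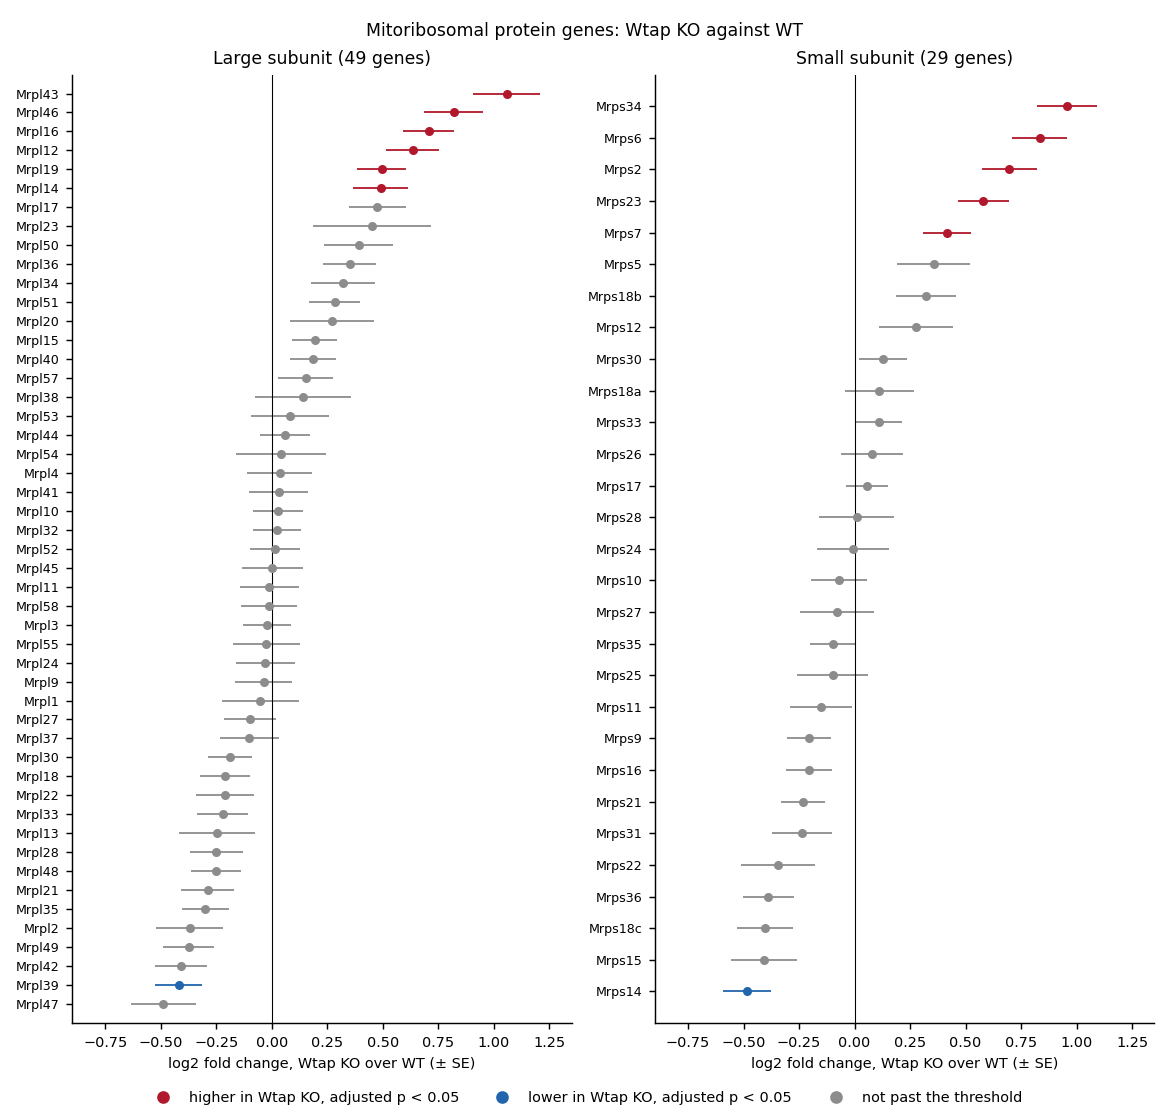
Log2 fold change of each of the 78 genes, Wtap KO over WT, ordered by size within the large (left) and small (right) subunit. Bars are standard errors derived from the test statistic. Red points passed an adjusted p of 0.05 with a higher level in Wtap KO (6 large and 5 small subunit genes), blue points passed with a lower level (1 in each subunit), and grey points did not pass.

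Both subunits held higher genes. In the large subunit 6 of 49 genes were higher in Wtap KO and 1 was lower, with a median log2 fold change of 0.01. In the small subunit 5 of 29 were higher and 1 was lower, with a median of -0.01. Summed over the large-subunit genes, the level was 2238, 2206 and 2193 TPM in Wtap KO libraries and 2145, 2097 and 2097 TPM in WT libraries. Every Wtap KO library lay above every WT library. These sums lack the scaling between libraries (TMM) that the edgeR fits used. Its factors were 1.03, 1.00 and 1.03 in Wtap KO libraries and 0.992, 0.992 and 0.955 in WT libraries. A higher factor lowers the scaled level of a library. Divided by these factors, the large-subunit sums of the groups overlap. The small-subunit genes summed to 1568, 1617 and 1644 TPM in Wtap KO libraries and 1654, 1572 and 1524 TPM in WT libraries, and the groups overlapped. The ratio of the large to the small sum was 1.38 ± 0.0476 in Wtap KO and 1.34 ± 0.0393 in WT (SD, n = 3 each). The difference, 0.0395, was not above the larger SD, and the ratios overlapped. As a ratio of geometric means, in which each gene weighs the same, it was 0.976 in both groups.

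**Figure D2:**
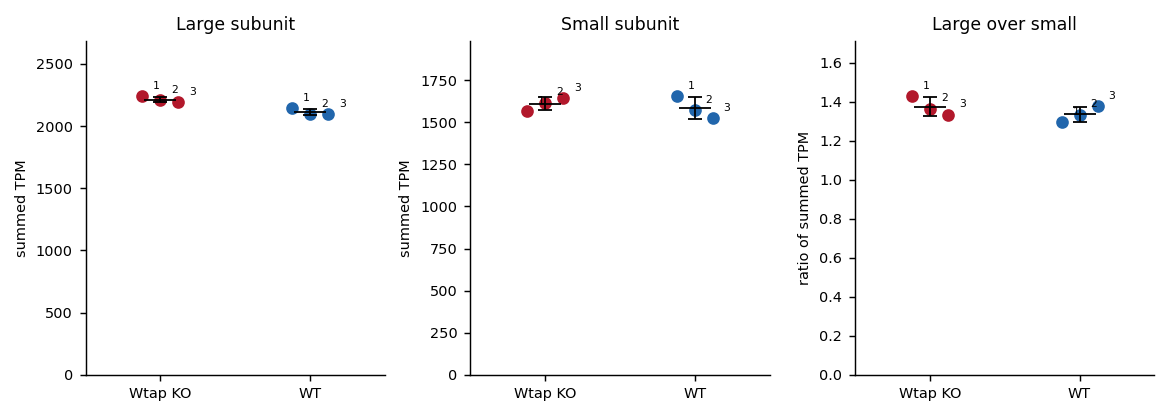
Summed TPM of the large-subunit genes (left), of the small-subunit genes (middle) and their ratio (right) in each library, with replicate numbers beside the points and the mean ± SD as bars. The ratios average 1.38 in Wtap KO and 1.34 in WT, and they overlap.

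Several symbols do not match where the protein sits. Mrps18a and Mrps30 encode proteins that structures of the ribosome place in the large subunit, and Mrps36 encodes a component of the alpha-ketoglutarate dehydrogenase complex. With genes placed by structure, 6 of 51 large-subunit and 5 of 26 small-subunit genes were higher in Wtap KO and 1 in each was lower. Mrps18a had 39.1, 35.3 and 33.4 TPM in Wtap KO libraries and 26.8, 31.7 and 37.0 TPM in WT libraries (log2 fold change 0.11 ± 0.15, adjusted p = 0.708). Mrps30 had 16.9, 17.8 and 16.4 TPM in Wtap KO and 16.3, 15.2 and 13.6 TPM in WT (0.13 ± 0.11, adjusted p = 0.504). Mrps36 had 62.5, 63.2 and 56.8 TPM in Wtap KO and 82.8, 73.1 and 77.0 TPM in WT, every Wtap KO library below every WT library, and stopped short of the threshold (-0.39 ± 0.12, adjusted p = 0.0722).

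By ancestry, 7 of the 46 genes with a bacterial counterpart were higher and 1 lower, and 4 of the 31 genes classed as gained in mitochondria were higher and 1 lower. The 31 include Mrps18a and Mrps18b, extra copies in the family of bacterial S18, neither of which was called. The 31 summed to 1407, 1385 and 1329 TPM in Wtap KO libraries and 1185, 1222 and 1218 TPM in WT libraries, with every Wtap KO library above every WT library. The 46 summed to 2336, 2375 and 2451 TPM in Wtap KO libraries and 2531, 2374 and 2326 TPM in WT libraries, and the groups overlapped. These sums too lack the TMM scaling, and the difference between the ancestries was not tested.

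Levels within the set spanned a wide range, from a mean of 1.61 TPM over the 6 libraries for Mrpl23 to 423.0 TPM for Mrps21, with a median of 32.5 TPM. Most members, 67 of 78, lay between 10 and 100 TPM, 6 lay above 100 TPM and 5 below 10 TPM. The median member had 31.8 TPM in the large and 33.9 TPM in the small subunit.

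Mrpl43, which encodes a large-subunit protein with no bacterial counterpart, had the largest rise of the 78. Its level was 50.3, 42.3 and 43.2 TPM in Wtap KO libraries and 16.9, 24.0 and 22.2 TPM in WT libraries. The lowest Wtap KO library was well above the highest WT library, and this was the only member changed by at least 2-fold (2.08-fold, log2 fold change 1.06 ± 0.15, adjusted p = 0.0056). One transcript, Mrpl43-201, held 98.9% of the gene's TPM in Wtap KO and 98.4% in WT. The gene lies at chr19:45004829-45006442 on the minus strand (GRCm38). Of its 31-base words, 31.6% also occur in Twnk, which lies head to head with it on the other strand and encodes the mitochondrial DNA helicase Twinkle. The strand setting of the counting is not stated, so reads from the shared stretch cannot be assigned. Twnk itself had 3.90, 3.31 and 4.10 TPM in Wtap KO and 2.00, 2.66 and 2.42 TPM in WT, short of the threshold (0.61 ± 0.17, adjusted p = 0.0622).

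Mrps34 encodes a small-subunit protein gained in mitochondria, and variants of it in people cause a respiratory chain disorder. It had 51.5, 49.2 and 44.04 TPM in Wtap KO libraries and 21.5, 26.3 and 24.4 TPM in WT libraries, again with no overlap (1.94-fold, log2 fold change 0.96 ± 0.14, adjusted p = 0.0056). The gene at chr17:24895116-24897502 on the plus strand sits in a crowded stretch, where 56.8% of its 31-base words also occur in Mapk8ip3 on the other strand and 35.6% in Nme3 on the same strand. Mapk8ip3 (log2 fold change 0.06 ± 0.14, adjusted p = 0.832) and Nme3 (-0.07 ± 0.25, adjusted p = 0.892) did not pass the test. As for Mrpl43, reads from the shared stretches cannot be assigned. Mrpl43 and Mrps34 were the only 2 members that passed in each of the 6 fits without 1 library.

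Mrps6, a small-subunit protein of bacterial ancestry, had 63.5, 68.1 and 70.5 TPM in Wtap KO libraries and 35.7, 33.5 and 40.0 TPM in WT libraries, with no overlap (log2 fold change 0.83 ± 0.12, adjusted p = 0.00673). It lies at chr16:92058270-92112227 on the plus strand. Slc5a3, the sodium-coupled myo-inositol transporter, starts 52 bases from it on the same strand, and 8.59% of the 31-base words of Mrps6 also occur in it. Slc5a3 was lower in Wtap KO, with 0.361, 0.464 and 0.635 TPM in Wtap KO and 0.953, 0.870 and 0.999 TPM in WT (-1.004 ± 0.21, adjusted p = 0.0239). Mrpl46, a large-subunit protein gained in mitochondria (chr7:78775236-78783531, minus strand), had 16.2, 14.6 and 14.01 TPM in Wtap KO and 8.65, 8.21 and 7.67 TPM in WT, a 1.76-fold higher level without overlap (0.82 ± 0.13, adjusted p = 0.00972).

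The other 7 higher genes were 1.33-fold to 1.63-fold higher, and the groups did not overlap in any of them. Mrpl16 is the counterpart of a bacterial protein near the site of peptide bond formation. It had 40.7, 40.1 and 40.1 TPM in Wtap KO and 21.5, 25.5 and 23.1 TPM in WT, with the 3 Wtap KO libraries almost level (log2 fold change 0.71 ± 0.11, adjusted p = 0.0093). Mrps2, of bacterial ancestry, had 21.6, 19.4 and 17.7 TPM in Wtap KO and 12.4, 11.5 and 10.6 TPM in WT (0.70 ± 0.12, adjusted p = 0.0126). Mrpl12 encodes the flexible stalk protein, which also binds the mitochondrial RNA polymerase, and had 39.7, 39.6 and 35.05 TPM in Wtap KO and 24.1, 22.3 and 24.8 TPM in WT (0.63 ± 0.12, adjusted p = 0.0171). Mrps23, gained in mitochondria, was the most abundant of the higher genes, with 149.3, 164.1 and 134.6 TPM in Wtap KO and 85.7, 97.2 and 89.9 TPM in WT (0.58 ± 0.11, adjusted p = 0.0184). Mrpl19, of bacterial ancestry, had 33.5, 31.7 and 29.5 TPM in Wtap KO and 24.3, 23.1 and 22.1 TPM in WT (0.50 ± 0.11, adjusted p = 0.0285), and 35.8% of its words also occur in Gcfc2 on the other strand, which did not pass the test (-0.15 ± 0.19, adjusted p = 0.671).

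Among the higher genes, Mrpl14 and Mrps7 were nearest to the threshold. Mrpl14, which faces the small subunit, had 58.8, 55.3 and 55.9 TPM in Wtap KO and 39.2, 35.4 and 40.1 TPM in WT (log2 fold change 0.49 ± 0.12, adjusted p = 0.043). Its adjusted p was 0.167 with the GC offset, 0.052 with the length offset and 0.356 over protein-coding transcripts alone. Mrps7, a protein of the small subunit's head, had 25.7, 25.5 and 24.0 TPM in Wtap KO and 17.9, 18.1 and 20.1 TPM in WT (0.42 ± 0.11, adjusted p = 0.0472). Its adjusted p was 0.118 with the GC offset, 0.0982 with the length offset and 0.0587 with limma. Mif4gd, whose exons overlap those of Mrps7 on the other strand by 119 bases, was higher too, with 29.3, 30.3 and 30.1 TPM in Wtap KO and 17.0, 18.04 and 19.9 TPM in WT (0.69 ± 0.13, adjusted p = 0.0154).

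**Figure D3:**
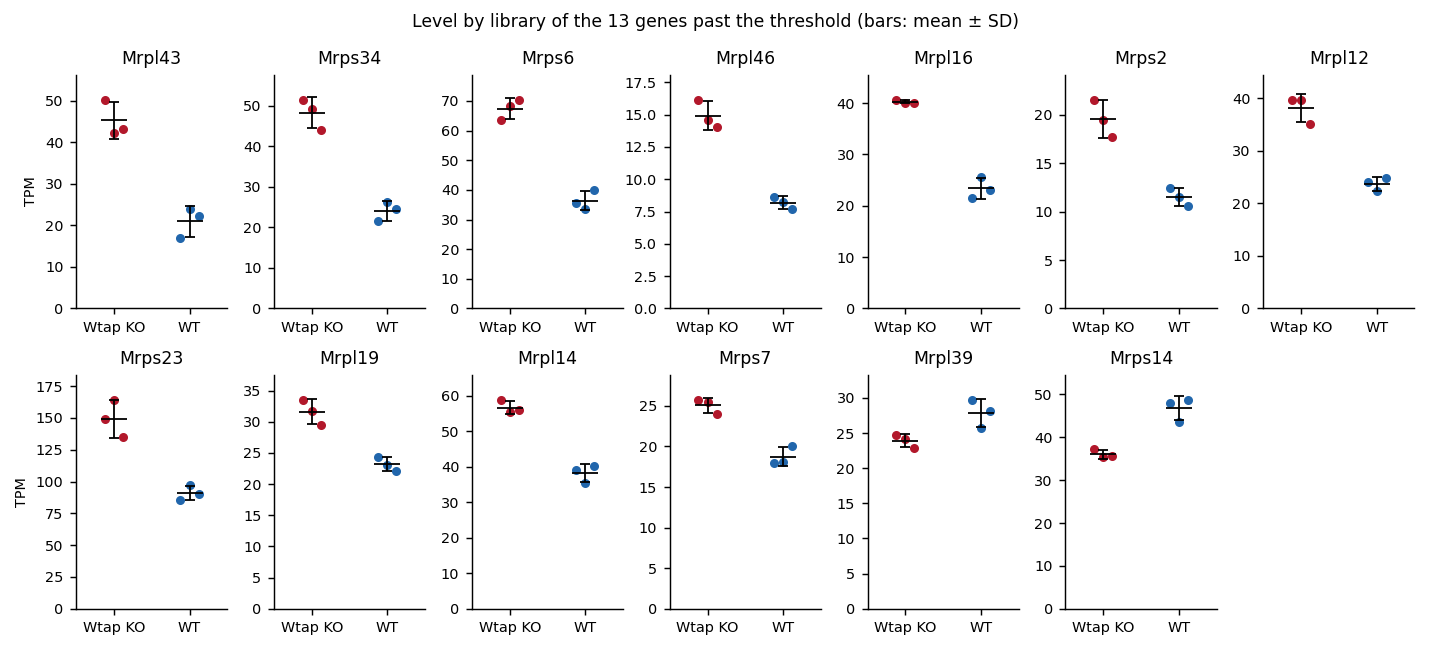
TPM by library of the 13 genes past an adjusted p of 0.05, Wtap KO (red) left of WT (blue), with the mean ± SD as bars and each axis starting at 0. In all 13 panels the points of the genotypes do not overlap.

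Mrps14 and Mrpl39 were the 2 lower genes. Mrps14, another protein of the small subunit's head, had 37.2, 35.3 and 35.6 TPM in Wtap KO libraries and 48.1, 43.7 and 48.7 TPM in WT libraries (log2 fold change -0.48 ± 0.11, adjusted p = 0.0277). Mrpl39, gained in mitochondria and related to threonyl-tRNA synthetases, had 24.7, 24.2 and 22.9 TPM in Wtap KO and 29.7, 25.7 and 28.1 TPM in WT (-0.42 ± 0.11, adjusted p = 0.0429). The highest Wtap KO value of each lay below the lowest WT value, for Mrpl39 by little. With limma the adjusted p was 0.0673 for Mrps14 and 0.27 for Mrpl39, and over protein-coding transcripts alone it was 0.0806 for Mrps14. Mrps14-201, which the annotation classes as a target of nonsense-mediated decay, held 85.3% of the Mrps14 TPM in Wtap KO and 85.9% in WT.

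Many of these calls were lost on leaving out 1 library, which also leaves fewer libraries for the test. The Mrps6 call was lost without Wtap KO 2, and those of Mrpl46 and Mrpl16 without Wtap KO 1 or Wtap KO 2. Mrpl12, Mrps2 and Mrps23 were lost without Wtap KO 1, Wtap KO 2 or WT 2. Mrpl19, Mrpl14, Mrps7 and Mrps14 were lost without any 1 of the Wtap KO libraries or WT 2, and Mrpl39 also without WT 3. Without Wtap KO 3, the library with the other sex pattern, 8 members were higher and 0 lower by edgeR. The counts were 2 and 0 without Wtap KO 2, 3 and 0 without Wtap KO 1, and 5 and 0 without WT 2. They were 12 and 3 without WT 1 or WT 3. At an unadjusted p under 0.05, edgeR gave 16 higher and 12 lower members with all 6 libraries. Of all 17610 genes tested, 2474 were higher and 2154 lower at that threshold. In the 4 fits with 0 lower calls, edgeR gave 6 to 10 lower members. Calls over all genes were 723 without Wtap KO 3, 353 without Wtap KO 2, 397 without Wtap KO 1, 579 without WT 2, 1990 without WT 3 and 2303 without WT 1, beside 1626 with all 6 libraries.

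Of 6 uncalled members with an adjusted p under 0.1, 5 had negative log2 fold changes (Mrpl47, Mrpl42, Mrps18c, Mrps36 and Mrpl49) and 1, Mrpl17, a positive one. Mrpl47, of bacterial ancestry, had the most negative fold change of the set, with 13.3, 13.3 and 14.01 TPM in Wtap KO and 25.4, 19.8 and 16.9 TPM in WT (log2 fold change -0.49 ± 0.15, adjusted p = 0.0722). Mrps15, the counterpart of a bacterial protein that binds ribosomal RNA early in assembly, had 60.7, 64.0 and 67.8 TPM in Wtap KO and 104.4, 74.7 and 69.4 TPM in WT (-0.41 ± 0.15, adjusted p = 0.125), and WT 1 was far above the other WT libraries. Over the whole set, 24 members had every Wtap KO library above every WT library, beside 19.5% of all genes tested, and 17 had every Wtap KO library below every WT library, beside 11% of all genes (30.5% in all). The other 37 overlapped.

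Of the 4 most abundant members of each subunit, only Mrps23 passed the test. Mrps21 had 358.0, 402.9 and 426.2 TPM in Wtap KO libraries and 496.3, 457.9 and 396.7 TPM in WT libraries (log2 fold change -0.23 ± 0.10, adjusted p = 0.177). Mrpl30 had 232.4, 231.8 and 229.7 TPM in Wtap KO and 263.2, 242.6 and 263.0 TPM in WT, without overlap but short of the threshold (-0.19 ± 0.10, adjusted p = 0.265). Mrpl52 averaged 169.4 ± 9.89 TPM in Wtap KO and 164.0 ± 16.1 TPM in WT (SD, n = 3 each), Mrpl33 averaged 111.3 ± 11.95 TPM in Wtap KO and 124.5 ± 18.6 TPM in WT and Mrps17 averaged 102.5 ± 5.65 TPM in Wtap KO and 96.8 ± 3.80 TPM in WT, and each overlapped between the groups. Mrpl58, a peptidyl-tRNA hydrolase built into the ribosome, averaged 102.2 ± 11.0 TPM in Wtap KO and 102.0 ± 10.9 TPM in WT. At the low end, Mrpl1, the protein of the mobile stalk beside the exit site, averaged 7.16 ± 1.06 TPM in Wtap KO and 7.19 ± 1.94 TPM in WT. Mrps27, an RNA-binding protein of the pentatricopeptide repeat family, averaged 7.23 ± 1.19 TPM in Wtap KO and 6.88 ± 2.07 TPM in WT, and Mrps25 averaged 7.57 ± 1.39 TPM in Wtap KO and 7.13 ± 0.825 TPM in WT.

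The 3 members of the bacterial S18 family, of which Mrps18c was classed as the bacterial counterpart, did not pass. Mrps18c, a small-subunit protein, had 77.3, 88.6 and 93.4 TPM in Wtap KO and 129.8, 111.2 and 94.6 TPM in WT (log2 fold change -0.40 ± 0.13, adjusted p = 0.0802). Mrps18b had 50.1, 43.9 and 39.1 TPM in Wtap KO and 31.7, 42.3 and 39.9 TPM in WT, with overlapping libraries (0.32 ± 0.14, adjusted p = 0.17). The fold change of Mrps18a, given above, was positive here and negative with the GC offset.

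Pseudogenes share sequence with some members. Counted with 31-base words, 19 pseudogenes shared over 5% of the words of 16 members, and 3 of the 19 had a mean above 5 TPM. Mrpl23 encodes a protein near the exit tunnel, and its own level was 2.31, 2.53 and 1.49 TPM in Wtap KO and 0.649, 1.30 and 1.40 TPM in WT (log2 fold change 0.45 ± 0.27, adjusted p = 0.325). Mrpl23-ps1 held more, at 59.5, 62.9 and 62.4 TPM in Wtap KO and 91.1, 79.4 and 81.7 TPM in WT, and was called lower (-0.49 ± 0.11, adjusted p = 0.0266). With the counts of both added, an alternative chosen after seeing the data, the fold change of Mrpl23 was negative and passed (-0.44 ± 0.10, adjusted p = 0.0356).

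Mrpl51 had 74.9, 73.4 and 80.8 TPM in Wtap KO and 64.1, 51.7 and 59.9 TPM in WT and did not pass (log2 fold change 0.28 ± 0.11, adjusted p = 0.154). Gm14017, a pseudogene that shares its words, was called higher at 24.8, 26.3 and 30.8 TPM in Wtap KO and 13.7, 11.2 and 12.1 TPM in WT (1.11 ± 0.17, adjusted p = 0.00734), and the sum of both did not pass (0.36 ± 0.11, adjusted p = 0.0836). Gm5776, which shares words with Mrps33, had 205.1, 205.4 and 213.3 TPM in Wtap KO and 172.1, 184.2 and 181.3 TPM in WT and did not pass (0.17 ± 0.12, adjusted p = 0.407), and Mrps33 had 97.3, 98.6 and 108.4 TPM in Wtap KO and 97.3, 85.6 and 87.1 TPM in WT. Counting can divide reads between such copies in any share, so the levels of Mrpl23, Mrpl51 and Mrps33 alone are uncertain.

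Many members share a start region with a neighbour. An annotated protein-coding partner began head to head within 1000 bases of 33 members, and for 31 of them the partner was tested. Mrpl46 and Mrps11 are such a pair, a large-subunit and a small-subunit gene that start 412 bases apart in GENCODE and 42 bases apart in RefSeq. In GENCODE their exons overlap by 173 bases on opposite strands, and reads from that stretch cannot be assigned. Mrpl46 was called higher, as given above. Mrps11 had 29.3, 27.0 and 25.3 TPM in Wtap KO and 29.8, 27.9 and 31.4 TPM in WT, with overlapping libraries (log2 fold change -0.15 ± 0.14, adjusted p = 0.55). Whether the responses of the pair differ was not tested. Eme2, part of a structure-specific DNA nuclease, starts 29 bases from Mrps34 and was lower. Its level was 1.79, 0.894 and 0.751 TPM in Wtap KO and 1.74, 2.53 and 2.24 TPM in WT, and Wtap KO 1 overlapped with WT (-1.14 ± 0.23, adjusted p = 0.0198). Psma2, a proteasome subunit, starts 75 bases from Mrpl32 and was lower, with 101.9, 106.7 and 105.7 TPM in Wtap KO and 173.5, 143.3 and 118.1 TPM in WT (-0.51 ± 0.14, adjusted p = 0.0487), while Mrpl32 did not pass (0.03 ± 0.11, adjusted p = 0.919). Of the 31 partners 2 were thus lower, and 1, Mrpl46 as the partner of Mrps11, was higher. Of all genes tested 3.49% were lower and 5.75% higher, or 9.23% in all.

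**Figure D4:**
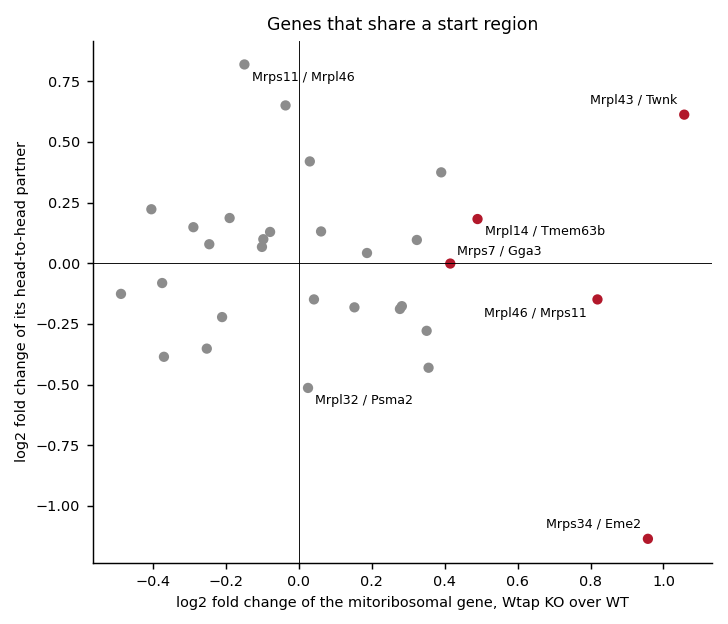
Log2 fold change (Wtap KO over WT) of 31 mitoribosomal genes on the x axis and of the tested protein-coding gene that starts head to head with each on the y axis. Red points are members called higher in Wtap KO, and pairs with a called gene are named. Mrpl46 and Mrps11 appear as a pair from both sides, and Mrps34 lies at 0.96 with Eme2 at -1.14.

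Start regions of 5 genes are shown, since 1 has the largest rise (Mrpl43), 1 has a neighbour called in the other direction (Mrps6), 2 share a start region and only 1 of them was called (Mrpl46 and Mrps11), and 1 is called lower (Mrpl39). Each runs from 250 bases before the RefSeq start site (GRCm38.p6) to 30 after it, on the strand of the gene. Capitals mark a match on either strand to 1 of 3 strings known from promoters of nuclear genes for mitochondrial or ribosomal proteins: CCGGAAGT (ETS factors), AAGATGGCG (YY1) and GCGCA followed directly by TGCGC (NRF1). The regions are chr19:45006413-45006692 (minus) for Mrpl43, chr16:92058086-92058365 (plus) for Mrps6, chr7:78783060-78783339 (minus) for Mrpl46, chr7:78782881-78783160 (plus) for Mrps11 and chr16:84735215-84735494 (minus) for Mrpl39.
Mrpl43: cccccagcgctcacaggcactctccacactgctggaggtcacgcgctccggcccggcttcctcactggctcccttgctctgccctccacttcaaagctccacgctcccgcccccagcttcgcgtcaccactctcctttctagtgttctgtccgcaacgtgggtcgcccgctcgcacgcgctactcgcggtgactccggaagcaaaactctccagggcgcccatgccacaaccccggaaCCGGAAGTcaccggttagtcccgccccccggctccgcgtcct
Mrps6: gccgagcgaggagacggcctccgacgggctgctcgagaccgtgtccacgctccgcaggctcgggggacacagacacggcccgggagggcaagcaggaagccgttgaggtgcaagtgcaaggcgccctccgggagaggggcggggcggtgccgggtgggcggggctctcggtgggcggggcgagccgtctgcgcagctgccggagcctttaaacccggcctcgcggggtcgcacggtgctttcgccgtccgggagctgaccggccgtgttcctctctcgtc
Mrpl46: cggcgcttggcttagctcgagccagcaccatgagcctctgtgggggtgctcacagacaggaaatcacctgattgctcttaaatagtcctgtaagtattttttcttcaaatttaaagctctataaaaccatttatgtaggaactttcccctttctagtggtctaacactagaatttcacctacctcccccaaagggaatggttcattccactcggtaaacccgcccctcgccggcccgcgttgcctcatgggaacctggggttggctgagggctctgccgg
Mrps11: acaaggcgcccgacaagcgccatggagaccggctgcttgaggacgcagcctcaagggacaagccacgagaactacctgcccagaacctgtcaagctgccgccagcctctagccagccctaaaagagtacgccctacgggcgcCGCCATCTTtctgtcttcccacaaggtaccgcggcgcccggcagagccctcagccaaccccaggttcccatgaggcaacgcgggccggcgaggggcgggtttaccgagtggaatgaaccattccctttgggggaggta
Mrpl39: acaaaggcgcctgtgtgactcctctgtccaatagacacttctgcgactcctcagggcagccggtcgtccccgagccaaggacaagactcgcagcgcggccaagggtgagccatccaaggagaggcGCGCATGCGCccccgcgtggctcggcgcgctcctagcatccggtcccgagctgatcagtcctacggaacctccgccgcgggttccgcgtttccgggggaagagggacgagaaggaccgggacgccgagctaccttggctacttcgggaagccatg
In these windows Mrpl43 holds the ETS string at position -12 from the start site, Mrps11 the YY1 string at -108 and Mrpl39 the NRF1 string at -125. Mrps6 and Mrpl46 hold none of the 3 within their windows. The YY1 string marked for Mrps11 lies past the end of the Mrpl46 window, downstream of the Mrpl46 start site.

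RefSeq start regions, taken here to 50 bases after the start, were matched for 69 of the 78 members. The ETS string occurred in 12 of the 69, or 17.4%, beside 4.31% of 27025 genes. The YY1 string occurred in 8, or 11.6%, beside 1.64% of genes, and the NRF1 string in 3, or 4.35%, beside 1.07%. An E-box (CACGTG) occurred in 7.25% of members beside 8.09% of genes, a GC box (GGGCGG) in 49.3% beside 38.2%, and TATAAA in 7.25% beside 15.7%. Each was searched on both strands, and none of the 6 strings contains another. Among the 9 higher members with a start region, 1 held the ETS string (Mrpl43) and 0 held the YY1 or NRF1 string. A match is a run of letters, not a measured binding site.

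Genes that build or serve the mitoribosome were counted beside the 9.23% of all genes tested that were called in either direction. Of 27 assembly factors 1 was higher, Mterf4, which takes part in ribosome assembly, at 17.6, 19.0 and 18.7 TPM in Wtap KO and 11.5, 9.10 and 9.26 TPM in WT (log2 fold change 0.82 ± 0.14, adjusted p = 0.0105). Among 5 mitoribosomal proteins with other symbols and 16 genes for translation factors or linked functions, edgeR, DESeq2 and limma each called 0. Lrpprc, Slirp and Oxa1l are among the 16 without being translation factors. At an unadjusted p under 0.05, edgeR gave 1 lower of the 5 and 3 higher and 1 lower of the 16. At that threshold 2474 of all 17610 genes tested were higher and 2154 lower. Of 20 genes that supply charged mitochondrial tRNAs, 2 were higher (Tars2 and Wars2) and 1 was lower (Mars2). The 20 are aminoacyl-tRNA synthetases apart from Gatb, Gatc and Qrsl1. Tars2 had 41.7, 34.7 and 42.1 TPM in Wtap KO and 14.3, 18.8 and 23.8 TPM in WT (0.77 ± 0.17, adjusted p = 0.025). Mars2 had 0.414, 0.403 and 0.529 TPM in Wtap KO and 0.909, 1.117 and 1.15 TPM in WT (-1.29 ± 0.17, adjusted p = 0.00447). Another list held 17 genes for mitochondrial transcription, RNA processing and DNA replication (Polg, Polg2 and Twnk for the last). Of these 2 were lower, Hsd17b10, a subunit of mitochondrial RNase P (-0.48 ± 0.12, adjusted p = 0.0458), and Mterf1a (-1.23 ± 0.18, adjusted p = 0.00685). Of 8 tested regulators of mitochondrial biogenesis 1 was higher, the coactivator Pprc1, with 12.4, 9.67 and 14.1 TPM in Wtap KO and 3.29, 5.88 and 6.88 TPM in WT (1.04 ± 0.26, adjusted p = 0.042), a call that the length offset ended. Nrf1 (0.03 ± 0.14, adjusted p = 0.916), Gabpa (-0.13 ± 0.12, adjusted p = 0.567) and Yy1 (-0.19 ± 0.13, adjusted p = 0.396), which bind the strings above, did not pass.

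The mitochondrial rRNAs, the ribosome's RNA core, summed to 2697, 2974 and 2713 TPM in Wtap KO libraries and 5387, 4194 and 3137 TPM in WT libraries, with no overlap and a wide WT spread. The libraries were made for mRNA, so rRNA reads in them need not follow the amount of rRNA in the cells. mt-Rnr2, the large-subunit rRNA, was called lower (log2 fold change -0.82 ± 0.21, adjusted p = 0.0438), and mt-Rnr1, the small-subunit rRNA, did not pass (-0.49 ± 0.13, adjusted p = 0.0556). With the length or the GC offset 2 of 2 rRNAs were called lower, and with limma 0 were. Of the 13 proteins encoded in mitochondria, mt-Atp6 was higher (0.58 ± 0.10, adjusted p = 0.00983) and mt-Nd3 lower (-1.47 ± 0.29, adjusted p = 0.0203).

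Nuclear genes for the respiratory chain and ATP synthase, whose complexes take up the mitoribosome's products, gave 14 lower and 0 higher of 80 tested, with a median log2 fold change of -0.31 beside 0.01 for the mitoribosomal genes. The number lower depended on the method. DESeq2 called 33 lower and 0 higher, limma called 5 lower and 0 higher, and edgeR gave 45 lower and 0 higher at an unadjusted p under 0.05. At that unadjusted threshold edgeR gave 2154 lower and 2474 higher of all 17610 genes tested. Cytosolic ribosomal proteins had 1 higher, Rpl41, and 0 lower of 82, with a median of -0.02. At an unadjusted p under 0.05 edgeR gave 6 lower of the 82, while DESeq2 called 1 lower and limma 0. With the GC offset 0 respiratory chain genes were higher and 49 lower (median -0.45), and 0 cytosolic ribosomal proteins were higher and 4 lower (median -0.12). The middle 50% of the log2 fold changes spanned 0.49 for mitoribosomal genes, 0.22 for respiratory chain genes, 0.19 for cytosolic ribosomal proteins and 0.54 for all genes tested. The differences between these lists were not tested.

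**Figure D5:**
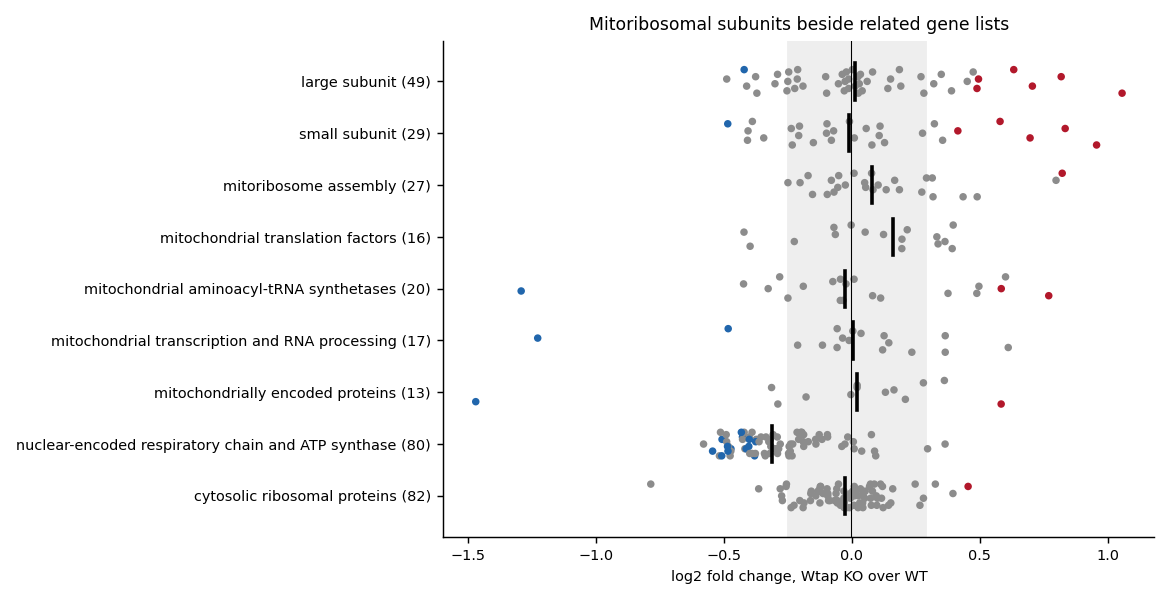
Log2 fold changes (Wtap KO over WT) of the tested genes of each list, with the number of genes in brackets, black bars at the list medians and a grey band over the middle 50% of all genes tested. Red and blue points passed an adjusted p of 0.05 with a higher or lower level in Wtap KO. The mitoribosomal subunits have medians of 0.01 and -0.01 and reach 1.06, while the respiratory chain genes have a median of -0.31. The synthetase, translation factor and transcription lists also hold some genes of linked functions, which the text names.

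The abundance-weighted transcript length had a median of 1130 bases in the 11 higher members and 919.9 bases in the other 67, beside 2010 bases over all genes tested. The median GC content was 53.3% in the higher members, 51.1% in the others and 48.7% over all genes. Across the 78 genes, which are not independent replicates, Pearson's r of the log2 fold change was 0.11 with log2 length and 0.31 with GC content. In 62 members the most abundant transcript was classed as protein-coding, and in 16 it was of another class. Among the higher genes the latter held for Mrpl12 and Mrpl14 (processed transcripts) and Mrpl19 (a retained intron). Over protein-coding transcripts alone, edgeR gave an adjusted p of 0.0305 for Mrpl12, 0.356 for Mrpl14 and 0.0258 for Mrpl19.

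Some markers of other cells differed with genotype. Of 7 dendritic cell markers 3 were higher in Wtap KO (Cd74, H2-Aa and Batf3), and the list summed to 44.7 to 59.8 TPM in Wtap KO and 11.4 to 37.5 TPM in WT, although Flt3, Itgax and Zbtb46 reached at most 0.356 TPM in any library. H2-Ab1, of the same list, had 7.38, 8.35 and 7.09 TPM in Wtap KO and 30.3, 7.22 and 6.13 TPM in WT, with WT 1 far above the rest, and did not pass (log2 fold change -0.92 ± 0.55, adjusted p = 0.349). Cd8b1, 1 of 2 CD8 T cell markers, was higher, with the list at 11.4 to 13.9 TPM in Wtap KO and 7.18 to 7.79 TPM in WT. Of 4 tested B cell markers 0 were called, and the list summed to 3.38 to 5.57 TPM in Wtap KO and 2.06 to 3.73 TPM in WT. NK cell markers (0 of 2 called) summed to 12.1 to 17.9 TPM in Wtap KO and 4.52 to 13.5 TPM in WT, and macrophage markers (0 of 2) to 2.18 to 4.83 TPM in Wtap KO and 3.02 to 4.35 TPM in WT. Red cell and platelet markers (0 of 3) summed to 5.40 to 14.999 TPM in Wtap KO and 3.09 to 11.9 TPM in WT. Granulocyte markers, none of which passed the filter, summed to 0.233 to 0.761 TPM in Wtap KO and 0.107 to 0.202 TPM in WT, and S100a9 was listed at 0. At an unadjusted p under 0.05, edgeR gave 1 higher B cell and 1 lower macrophage marker, and DESeq2 and limma called 0 in these lists. Their part in the mitoribosomal results was not tested. In bulk libraries fewer cells of a type and less RNA per cell cannot be told apart.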

How the data were processed

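RNA was read as pairs of 50 bp from SENSE mRNA libraries, per the labels' protocols. The authors deposited, per library, a kallisto table of transcripts with expected counts (estimated counts, which divide reads that fit several transcripts) and TPM, a length-corrected share of all transcripts. kallisto 0.44.0, DESeq2 and the build GRCm38 (mm10) are named, per the submitters' processing notes. The strand setting and the index annotation are not stated.

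Transcripts were matched without version to GENCODE M21 (99.15% matched, holding at least 99.71% of each library's counts), summed per gene and rounded to whole counts. Genes were tested with edgeR 4.0.16 in R 4.3.3 (robust quasi-likelihood, TMM, filterByExpr, genotype only), with Benjamini-Hochberg adjustment over 17610 genes and a threshold of 0.05, checked on simulated data. Alternatives used DESeq2 1.42.0, limma 3.58.1, other filters and scalings, offsets for length or GC content, and each library left out. Groups come from the genotype labels, and no batch is labelled. Depth was 32363139 to 44039467 counts per library.

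Members and lists were chosen with earlier results of these data known. Named with values were members past the threshold, the 4 most and 2 least abundant and the 2 largest rises and falls per subunit, and Mrpl12, Mrpl58, Mrps18a, Mrps18b, Mrps18c, Mrps30 and Mrps36 for their roles. Pseudogenes, neighbours and other named genes were chosen after their values were seen. Start regions are RefSeq's (GRCm38.p6). Mrpl38, Mrpl19, Mrpl4, Mrps35, Mrpl15, Mrpl13, Mrpl54, Mrps34 and Mrps28 had no entry.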

Additional observations from a re-analysis of the deposited data

How the results depend on the processing

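Mrpl43 and Mrps34 kept their direction and call in all 19 alternatives run, those without 1 library included. None of the 19 reassigned the reads that these genes may share with overlapping neighbours. The number of members higher in Wtap KO, 11, lay between 8 and 12 in the alternatives with all libraries, and the leave-one-out fits gave 2 to 12. The number lower, 2, was 7 with DESeq2, 10 with the GC offset, 1 with no filter on low counts, length-scaled counts or protein-coding transcripts alone, 0 with limma at a pseudocount of 1 or 0.1 and 0 with the replicate block, and leave-one-out fits gave 0 to 3. At an unadjusted p under 0.05, limma gave 8 lower members, the block 8 and the leave-one-out fits 6 to 13. Shares of all genes at that threshold are not given for these fits. For the large subunit, lower genes (1) were 4 with DESeq2, 6 with the GC offset, 2 with a filter of at least 1 CPM, 2 with pseudogene counts added, 0 with no filter, limma or the replicate block and 0 to 2 on leaving out a library, which gave 1 to 7 higher genes. For the small subunit, lower genes (1) were 3 with DESeq2, 4 with the GC offset, 0 with limma, the replicate block, length-scaled counts or protein-coding transcripts and 0 to 2 on leaving out a library, which gave 1 to 5 higher genes. Calls over all genes (1626) numbered 2576 with DESeq2, 1061 with the replicate block and 353 to 2303 on leaving out a library. The labels do not say whether replicate numbers pair these samples. Deviations of same-numbered libraries from their group means correlated at -0.10, 0.05 and 0.14. Those of differently numbered libraries correlated at -0.20 to 0.15. With 3 libraries per group such values cannot decide whether the samples are paired. With the block, 8 of the 11 higher and 0 of the 2 lower members were called.

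The large-subunit median, 0.01, was -0.0432 with the length offset, -0.0858 with the GC offset and -0.0341 to 0.0459 on leaving out a library. The small-subunit median, -0.01, was 0.0575 and 0.0598 with limma at pseudocounts of 1 and 0.1, -0.135 with the GC offset, -0.0393 by structure and -0.072 to 0.0721 on leaving out a library. The difference in the subunit ratio was 0.0135 to 0.0602 on leaving out a library.

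Single genes were recomputed for the 30 members named by rule, of which 13 were called, and signs turned for 8 of the uncalled ones. Mrpl23 was -0.439 with pseudogene counts added. With limma at pseudocounts of 1 and 0.1, Mrps25 was 0.0678 and 0.0749, Mrpl58 0.00283 and 0.00286, Mrpl1 0.011 and 0.0144, and Mrps27 0.0833 and 0.0966. With the GC offset, Mrpl52 was -0.191, Mrps18a -0.0701 and Mrps17 -0.019. With length-scaled counts, Mrpl52 was -0.0055, Mrps25 0.0207 and Mrps27 0.022. Mrpl58 was 0.161 with protein-coding transcripts. On leaving out a library, Mrpl52 spanned -0.0755 to 0.0663, Mrps25 -0.27 to 0.0345, Mrpl58 -0.101 to 0.0648, Mrps18a -0.0117 to 0.234, Mrpl1 -0.167 to 0.13 and Mrps27 -0.173 to 0.0479. The cause was not tested.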

Other observations

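Mrpl38, a large-subunit protein without a bacterial counterpart, had 2 transcripts whose levels did not overlap between the groups, while its total did. The total had 12.8, 10.2 and 12.9 TPM in Wtap KO libraries and 7.16, 12.3 and 16.3 TPM in WT libraries and did not pass the edgeR test (log2 fold change 0.14 ± 0.22, adjusted p = 0.736). Mrpl38-205, which the annotation classes as a retained intron, had 5.30, 7.18 and 7.39 TPM in Wtap KO and 0.640, 2.80 and 0.00304 TPM in WT. Every Wtap KO library was above every WT library. The protein-coding Mrpl38-201 had 4.31, 1.503 and 1.33 TPM in Wtap KO and 4.75, 5.02 and 8.995 TPM in WT, with every Wtap KO library below every WT library. By share of the gene's TPM, Mrpl38-205 made up 41.3%, 70.4% and 57.4% in Wtap KO and 8.94%, 22.7% and 0.0187% in WT. The gene was picked after its values were seen, the split was not tested, and kallisto divides reads between transcripts with an uncertainty that is not part of these values.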
